A study of Mus musculus with 6 samples.

Results

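The transcription factor p53 and 33 genes that it induces or that control it were followed in samples labelled as hearts of mice. The mice had undergone ischemia/reperfusion (I/R), in which blood supply to the heart muscle is stopped for a time and then restored. Of the 34 genes, 32 were among the 27482 gene symbols of the deposited table and all 32 passed the low-count filter, as did 14663 symbols in all. Cdkn2a and Perp were not analysed here. The genes were chosen by symbol as known parts of the p53 pathway, with the results of this same comparison already in view and with no threshold on a measured value, so their changes are given as a description and not as an independent test of the pathway. RNA-seq had been carried out on 3 libraries labelled AAV9-hFNDC4, from mice with FNDC4 overexpression by an AAV9 vector, and on 3 libraries labelled AAV9-CTRL, from mice that received a control AAV9 vector. FNDC4 is a secreted protein with a fibronectin type III domain, and AAV9 is an adeno-associated virus that transduces heart muscle. The title speaks of male mice, and both groups underwent I/R with the samples taken 24 h afterwards. The strain, the age and the promoter of the vector are not stated in the labels, and no group without I/R was analysed here.

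p53 is kept low in unstressed cells by Mdm2, a ubiquitin ligase that marks it for degradation, and by Mdm4, which binds and inhibits it. DNA damage and other stresses release p53, which then binds DNA as a tetramer and raises transcription of genes for cell cycle arrest, DNA repair, metabolism and apoptosis, and of its own inhibitors, among them Mdm2. p53 is regulated mainly as a protein, so the RNA levels below measure neither its amount nor its activity.

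Total counts lay between 32975817 and 36074046 per library. Transcripts that define heart muscle were close to absent: of 24 cardiomyocyte markers 5 averaged at least 1 CPM (the counts of a gene relative to the library total after TMM scaling, a trimmed mean of M-values), and Nkx2-5, Myl7 and Pln had no counts. The summed cardiomyocyte markers came to 53.6 to 58.2 CPM in the AAV9-hFNDC4 libraries and 68.2 to 73.6 CPM in the AAV9-CTRL libraries. Of these Tnnt2 alone averaged 44.9 CPM over all 6. Leukocyte markers summed to 24.7 to 29.1 CPM in the AAV9-hFNDC4 libraries and 43.8 to 51.2 CPM in the AAV9-CTRL libraries, with Ptprc at 0.0912 CPM over all 6. Endothelial markers summed to 116 to 143 CPM under AAV9-hFNDC4 and 154 to 281 CPM under AAV9-CTRL, of which the lipid carrier Fabp4 alone averaged 168 CPM, and Emcn was at 0. Fibroblast markers summed to 5857 to 6791 CPM under AAV9-hFNDC4 and 5216 to 6692 CPM under AAV9-CTRL. Of 13 such genes, 8 averaged at least 1 CPM, and Vim, an intermediate filament gene that many cell types express, alone averaged 3583 CPM, while Dcn, Lum, Tcf21 and Postn were at 0.00499 to 0.122 CPM. Markers of smooth muscle and pericytes summed to 458 to 506 CPM under AAV9-hFNDC4 and 294 to 349 CPM under AAV9-CTRL. Only Cspg4 (313 CPM) and Des (81.7 CPM) of these 8 reached 1 CPM, and the contractile genes Acta2, Myh11, Tagln and Cnn1 were at 0.0502 to 0.369 CPM. These levels go against the tissue label heart, so groups are called by their vector labels. The part of other cell types in the results was not tested. In bulk RNA, fewer cells of a type cannot be told apart from less RNA per cell.

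The promoter sequences show where matches to the p53 motif lie in the regulator and in some of the targets called lower. They are RefSeq windows of GRCm38.p6 that run from 250 bases before to 50 bases after an annotated start, on the strand of the gene. The 5 members shown are Trp53 itself and 4 of its targets, chosen because their windows hold a match. Ei24 and Tigar, also called lower, hold a match and are not printed, and the other members called lower have no match or no window. Capitals mark each match to the p53 half-site consensus (10 bases) and each core pair, that is, the centres of 2 half-sites with no bases between them. The Cdkn1a window (chr17:29090729-29091028, + strand) belongs to the upstream of 2 annotated starts, which lie 2790 bases apart. The others are Aen (chr7:78895808-78896107, +), Mdm2 (chr10:117710709-117711008, -), Ccng1 (chr11:40755237-40755536, -) and Trp53 (chr11:69580109-69580408, +).
Cdkn1a: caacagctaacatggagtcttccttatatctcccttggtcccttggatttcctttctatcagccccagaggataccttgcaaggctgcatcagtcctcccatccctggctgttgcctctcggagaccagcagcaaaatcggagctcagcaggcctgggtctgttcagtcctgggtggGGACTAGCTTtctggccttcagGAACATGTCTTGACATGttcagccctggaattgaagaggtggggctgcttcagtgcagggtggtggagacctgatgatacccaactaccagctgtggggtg
Aen: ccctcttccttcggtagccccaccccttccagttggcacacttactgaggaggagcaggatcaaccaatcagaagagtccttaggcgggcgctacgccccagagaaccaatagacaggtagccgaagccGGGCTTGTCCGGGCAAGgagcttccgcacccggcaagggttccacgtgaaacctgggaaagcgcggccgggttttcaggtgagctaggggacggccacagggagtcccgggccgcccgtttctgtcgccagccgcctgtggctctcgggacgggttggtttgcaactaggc
Mdm2: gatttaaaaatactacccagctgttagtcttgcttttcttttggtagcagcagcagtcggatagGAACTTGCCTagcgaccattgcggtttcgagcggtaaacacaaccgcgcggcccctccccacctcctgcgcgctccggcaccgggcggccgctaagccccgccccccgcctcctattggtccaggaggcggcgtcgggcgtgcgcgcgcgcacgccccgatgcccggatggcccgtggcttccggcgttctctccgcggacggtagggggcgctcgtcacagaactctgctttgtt
Ccng1: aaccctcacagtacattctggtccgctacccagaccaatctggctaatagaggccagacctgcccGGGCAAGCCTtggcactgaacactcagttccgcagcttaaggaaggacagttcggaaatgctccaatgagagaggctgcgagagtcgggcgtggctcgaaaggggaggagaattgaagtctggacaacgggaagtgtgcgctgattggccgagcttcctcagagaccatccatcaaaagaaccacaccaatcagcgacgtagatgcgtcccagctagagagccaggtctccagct
Trp53: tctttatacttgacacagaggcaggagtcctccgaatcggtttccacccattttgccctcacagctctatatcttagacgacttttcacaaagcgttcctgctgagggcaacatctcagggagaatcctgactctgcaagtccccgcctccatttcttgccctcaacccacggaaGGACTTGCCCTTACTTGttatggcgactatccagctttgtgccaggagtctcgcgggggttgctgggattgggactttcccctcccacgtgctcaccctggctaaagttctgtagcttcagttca
In Cdkn1a the core pair begins 48 bases before the upstream start, and in Trp53 72 bases before the start. The window of the downstream Cdkn1a start (chr17:29093519-29093818, +) holds neither a half-site nor a core pair. Aen has 2 windows with different annotated starts. In the window shown its core pair begins 118 bases before the start. In the other (chr7:78895677-78895976, +) the same pair begins after the start, at base 14.

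Windows were present for 26 of the 32 members, and not for Ddb2, Rrm2b, Tnfrsf10b, Trp53inp1, Xpc and Zmat3. Both strands were searched, and a gene counted once if any of its windows held a match. The half-site consensus was found in 12 of 26 members (46.2%), against 9.55% of 27025 genes with a window, and the core pair in 8 members (30.8%), against 8.19%. These 2 motifs overlap in their letters, and 5 members held both. Of the 11 members with a window whose RNA was called lower, 6 held a half-site, as did 5 of the 14 that did not pass the test and Ppm1d among those called higher. Known p53 sites are part of the reason why such genes count as targets, so these shares describe the list. TATAAA was found in 2 members (7.69%, Eda2r and Trp53), against 15.7% of all genes. CCAAT was found in 15 members (57.7%), against 41.1%, and GGGCGG in 20 members (76.9%), against 38.2%. All members had passed the low-count filter, whereas the 27025 genes were not filtered by level, so these shares compare unlike sets. A match describes letters and not a bound site.

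Among the 32 genes, 13 were lower and 4 higher in the AAV9-hFNDC4 libraries, and 15 did not pass. The lower genes included the cell cycle inhibitor Cdkn1a (p21), Mdm2, Ccng1, Aen and Phlda3, while other well-known targets, among them Gadd45a, Fas, Btg2 and Sesn1, did not pass. Apart from Trp53 itself, at 1.22-fold, they were 1.51-fold (Pidd1) to 3.21-fold (Aen) lower. The higher genes were Rrm2b, Ddb2 and Xpc, which serve DNA repair and nucleotide supply, and the phosphatase Ppm1d, 1.39-fold to 1.67-fold higher. Calls are those of the edgeR quasi-likelihood test with a Benjamini-Hochberg adjusted p under 0.05 over all 14663 genes. Of all genes tested, 25.0% were called lower and 22.1% higher, together 47.1%, beside 40.6% and 12.5% of these members. Groups did not overlap in 18 of the 32 members (56.2%), against 56.6% of all genes tested. The members' median log2 fold change was -0.14, against 0.01 over all genes. Of the 13 lower members, 12 were also called lower in each of 15 alternative analyses that kept this call rule, the exception being Trp53. Of the 4 higher members, Rrm2b was called in each of the 15. Without AAV9-CTRL replicate 3 the higher count was 1, without AAV9-hFNDC4 replicate 3 it was 2, without AAV9-CTRL replicate 1 it was 6, and without AAV9-hFNDC4 replicate 2 the median was -0.25. With a call rule of unadjusted p under 0.05 plus a log2 change beyond 1, 7 members were lower and 0 higher. That rule called 2237 genes in all, against 6908. The labels do not tie each library to an animal of its own. The p-values therefore rest on the spread among libraries alone, and that spread may be technical.

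**Figure D1:**
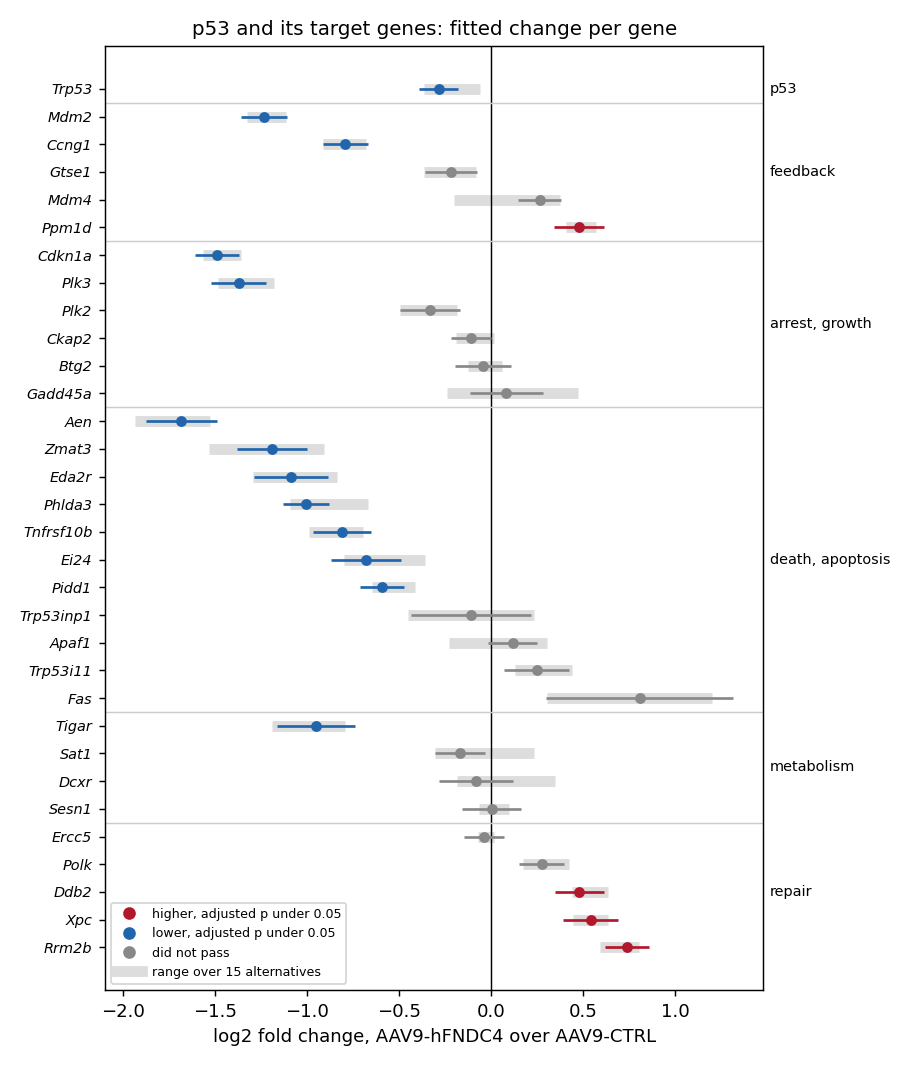
Log2 fold change of each of the 32 genes, AAV9-hFNDC4 over AAV9-CTRL, with its standard error (bars), grouped by role from p53 at the top to repair at the bottom; colours give the call, and grey bands the range over 15 alternative analyses. Blue points of arrest and death genes reach -1.68 (Aen), and the red points lie at 0.48 to 0.74.

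Trp53, which encodes p53, was at 176, 191 and 169 CPM in the AAV9-hFNDC4 libraries, against 225, 193 and 235 CPM in the AAV9-CTRL libraries (chromosome 11, 69580359 to 69591873, GRCm38). The groups did not overlap but nearly touched, with AAV9-hFNDC4 replicate 2 at 191 CPM and AAV9-CTRL replicate 2 at 193 CPM. The log2 fold change was -0.29 (SE 0.11, edgeR adjusted p = 0.0469). This call was lost in 10 of 15 alternatives. The adjusted p ranged from 0.00881 to 0.704 over all 15, and with a correction for transcript length the value was -0.06. Per kb of exon, Trp53 RNA stood at 95.6 CPM under AAV9-hFNDC4 and 117 CPM under AAV9-CTRL.

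Genes of the negative feedback on p53 went different ways, with 2 lower, 1 higher and 2 that did not pass. By share 40% were lower and 20% higher, against 25.0% and 22.1% of all genes tested. Mdm2, the ubiquitin ligase of p53, was at 74.7, 90.5 and 75.1 CPM in the AAV9-hFNDC4 libraries, against 213, 163 and 190 CPM in the AAV9-CTRL libraries (chromosome 10, 117688875 to 117710758). Every AAV9-hFNDC4 library lay below every AAV9-CTRL library, and the log2 fold change was -1.24 (SE 0.13, edgeR adjusted p = 3.31e-05), or 2.35-fold lower. Ccng1 encodes cyclin G1, which recruits a phosphatase that activates Mdm2. It was at 130, 143 and 122 CPM under AAV9-hFNDC4, against 254, 237 and 194 CPM under AAV9-CTRL, again without overlap, with a log2 fold change of -0.79 (SE 0.12, edgeR adjusted p = 0.000329). Ppm1d, a phosphatase (Wip1) that removes activating phosphates from p53 and its kinases, moved the other way. It was at 21.1, 17.8 and 19.1 CPM under AAV9-hFNDC4 and at 15.1, 14.0 and 12.6 CPM under AAV9-CTRL, a log2 fold change of 0.48 (SE 0.14, edgeR adjusted p = 0.0134). This call was lost without AAV9-hFNDC4 replicate 1 (edgeR adjusted p = 0.0707) and without AAV9-CTRL replicate 3 (0.0632), within a range of 0.00578 to 0.0707 over its alternatives. Mdm4, the inhibitor of p53 related to Mdm2, did not pass, with 137, 169 and 148 CPM under AAV9-hFNDC4 and 140, 122 and 116 CPM under AAV9-CTRL. Its log2 fold change was 0.26 (SE 0.12) and turned to -0.20 with the length correction. Mdm4 passed as higher with upper-quartile normalization and without AAV9-CTRL replicate 1. Gtse1, a microtubule protein that can carry p53 out of the nucleus, had overlapping groups and a value of -0.22 (SE 0.14). It did not pass in the main analysis, but passed as lower without AAV9-CTRL replicate 3.

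**Figure D2:**
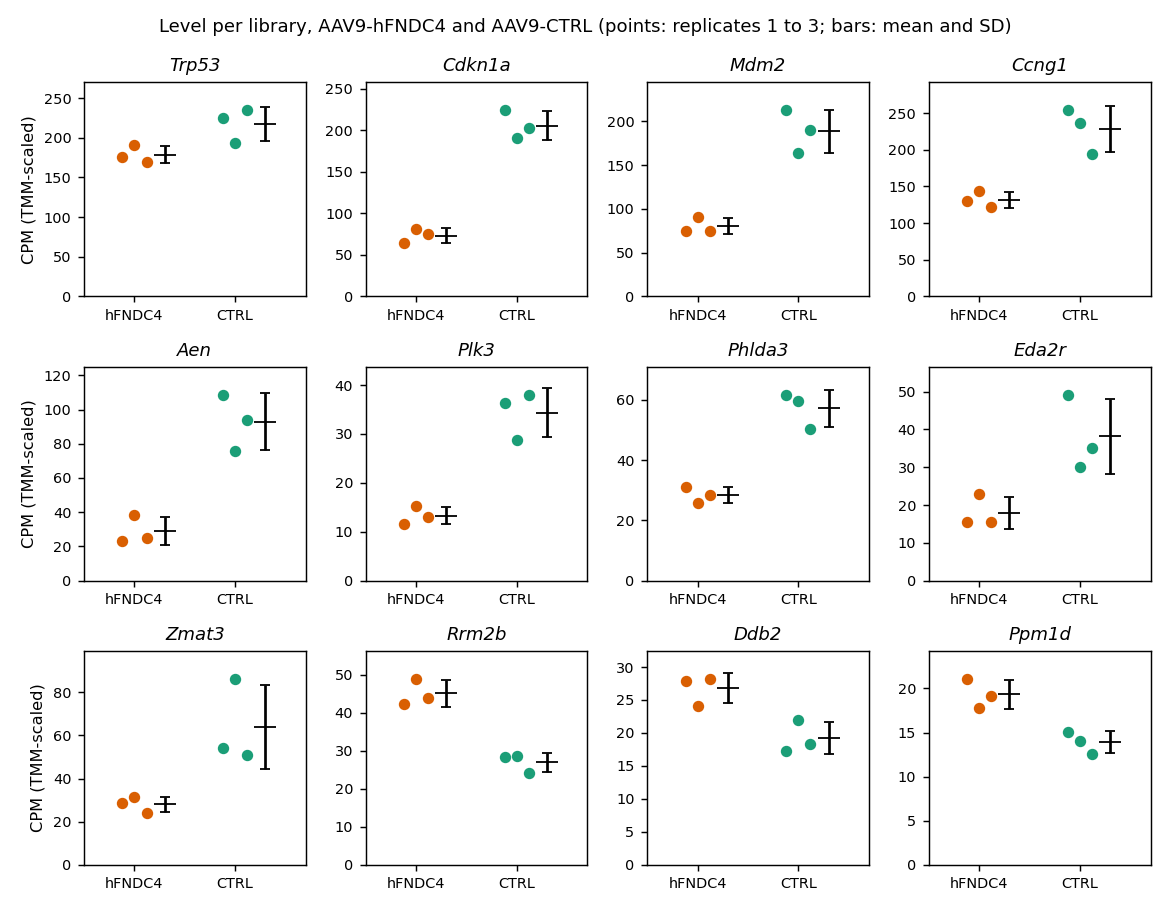
RNA level in CPM (scaled by TMM) of 12 genes, with AAV9-hFNDC4 libraries on the left and AAV9-CTRL libraries on the right of each panel; points are replicates 1 to 3 in order and bars are the mean and SD of 3 libraries. The first 9 genes lie lower in every AAV9-hFNDC4 library, and Rrm2b, Ddb2 and Ppm1d lie higher.

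Of 6 genes of cell cycle arrest and growth control, 2 were lower and none was higher. The lower share was 33.3%, against 25.0% of all genes tested, of which 22.1% were higher. Cdkn1a, the inhibitor of cyclin-dependent kinases through which p53 halts the cell cycle, was at 63.8, 81.0 and 74.8 CPM in the AAV9-hFNDC4 libraries, against 224, 190 and 203 CPM in the AAV9-CTRL libraries (chromosome 17, 29090976 to 29100727), and 10.04% of its exon bases are shared with an annotated transcript on the opposite strand. The gap between the groups, 81.0 against 190 CPM at its narrowest, was wider than the range within either group. The log2 fold change was -1.49 (SE 0.12, edgeR adjusted p = 1.04e-05), 2.81-fold lower, and over the alternatives it ran from -1.57 to -1.36. Plk3, a stress-responsive polo-like kinase, was at 11.6, 15.2 and 13.1 CPM under AAV9-hFNDC4, against 36.3, 28.8 and 38.1 CPM under AAV9-CTRL, with -1.37 (SE 0.15, edgeR adjusted p = 4.74e-05). Its relative Plk2 overlapped between groups at 166, 240 and 182 CPM under AAV9-hFNDC4 and 286, 194 and 258 CPM under AAV9-CTRL. The Plk2 value of -0.33 (SE 0.16) did not pass, but passed without AAV9-hFNDC4 replicate 2 (-0.50), without AAV9-CTRL replicate 2 (-0.48) and when low counts were not filtered. Gadd45a, a growth arrest gene that binds p21, was at 210, 358 and 195 CPM under AAV9-hFNDC4 and 233, 224 and 263 CPM under AAV9-CTRL. AAV9-hFNDC4 replicate 2 stood above the other libraries, and without it the log2 fold change was -0.24 in place of 0.08, neither of which passed. Btg2, an antiproliferative gene, and Ckap2, a microtubule protein of mitosis, had values of -0.04 and -0.11 that did not pass.

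The largest group, genes of apoptosis and death receptors, held 7 lower genes of 11, none higher and 4 that did not pass. That is 63.6% lower, against 25.0% of all genes tested, of which 22.1% were higher. Aen, a nuclease that takes part in apoptosis, was at 23.2, 38.3 and 25.1 CPM in the AAV9-hFNDC4 libraries, against 109, 75.6 and 94.1 CPM in the AAV9-CTRL libraries (chromosome 7, 78895854 to 78911209). It had the largest change of all members, -1.68 (SE 0.19, edgeR adjusted p = 6.64e-05), 3.21-fold lower. Its groups were separated by 38.3 against 75.6 CPM at the closest. Zmat3, a zinc finger protein that binds RNA, was at 28.5, 31.3 and 24.2 CPM under AAV9-hFNDC4, against 54.2, 86.3 and 51.1 CPM under AAV9-CTRL, with -1.19 (SE 0.19, edgeR adjusted p = 0.000434). Eda2r, a receptor of the tumour necrosis factor family, was at 15.6, 22.9 and 15.5 CPM under AAV9-hFNDC4, against 49.2, 30.1 and 35.1 CPM under AAV9-CTRL, with -1.09 (SE 0.20, edgeR adjusted p = 0.00109). Within each of these 3 genes the 2 groups did not overlap.

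Phlda3, which restrains the survival kinase Akt at the membrane, was at 31.2, 25.9 and 28.4 CPM in the AAV9-hFNDC4 libraries, against 61.8, 59.6 and 50.2 CPM in the AAV9-CTRL libraries. The log2 fold change was -1.01 (SE 0.12, edgeR adjusted p = 9.36e-05), and -0.67 with the length correction, still called. Tnfrsf10b, the mouse receptor for the death ligand TRAIL, was at 24.4, 26.8 and 27.0 CPM under AAV9-hFNDC4, against 50.6, 33.7 and 52.98 CPM under AAV9-CTRL, with -0.81 (SE 0.16, edgeR adjusted p = 0.00163). AAV9-CTRL replicate 2 was the closest control to the AAV9-hFNDC4 libraries in this gene. Ei24, a protein of the endoplasmic reticulum, was at 84.0, 86.5 and 81.4 CPM under AAV9-hFNDC4, against 105, 188 and 111 CPM under AAV9-CTRL, with -0.68 (SE 0.19, edgeR adjusted p = 0.0115). Here AAV9-CTRL replicate 2 was the highest library, and without it the value was -0.36, still called. Pidd1, a death domain protein that activates caspase 2, was at 22.9, 19.6 and 23.9 CPM under AAV9-hFNDC4, against 33.4, 35.0 and 31.7 CPM under AAV9-CTRL, with -0.59 (SE 0.12, edgeR adjusted p = 0.00196).

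The death receptor gene Fas did not pass and was close to the detection limit, at 2.19, 4.57 and 1.82 CPM in the AAV9-hFNDC4 libraries and 2.34, 2.04 and 0.509 CPM in the AAV9-CTRL libraries. The log2 fold change of Fas, 0.81 (SE 0.51, edgeR adjusted p = 0.213), was the highest of the 32 members. Its lowest library, AAV9-CTRL replicate 3, rested on 17 counts. Trp53inp1, a stress protein that promotes autophagy and death, was at 23.3, 27.99 and 21.9 CPM under AAV9-hFNDC4 and 29.4, 37.4 and 12.2 CPM under AAV9-CTRL, so that the controls alone spanned a wider range than the groups differed. Apaf1, the scaffold of the apoptosome, was at 0.12 on the log2 scale (SE 0.13) and turned to -0.23 with the length correction, and Trp53i11 had 0.25 (SE 0.18). Neither passed in the main analysis, and Trp53i11 passed with a correction for GC content (0.42) and without AAV9-CTRL replicate 2 (0.44).

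Of 4 metabolic genes, Tigar was lower and 3 did not pass. This lower share of 25% matches the 25.0% of all genes tested, of which 22.1% were higher. Tigar, a phosphatase that slows glycolysis and favours the pentose phosphate pathway, was at 11.2, 13.1 and 12.2 CPM in the AAV9-hFNDC4 libraries, against 27.2, 14.98 and 28.6 CPM in the AAV9-CTRL libraries. AAV9-CTRL replicate 2 lay nearer to the AAV9-hFNDC4 libraries than to its own group, without reaching them. The log2 fold change was -0.95 (SE 0.21, edgeR adjusted p = 0.00342). Sesn1, a sestrin that inhibits mTORC1 signalling, was at 10.7, 9.75 and 11.8 CPM under AAV9-hFNDC4 and 10.4, 9.66 and 12.1 CPM under AAV9-CTRL, a mean of 10.8 ± 1.03 CPM and 10.7 ± 1.24 CPM (SD, n = 3 each). Sat1, which acetylates the polyamines spermidine and spermine, and Dcxr, a carbonyl reductase, had values of -0.17 (SE 0.13) and -0.08 (SE 0.20), which did not pass and were 0.23 and 0.35 with the length correction.

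DNA repair and nucleotide supply was the group in which calls ran upward, with 3 of 5 genes higher and none lower. The higher share was 60%, against 22.1% of all genes tested, of which 25.0% were lower. Rrm2b, the p53-inducible small subunit of ribonucleotide reductase that makes deoxynucleotides outside S phase, was at 42.4, 49.0 and 44.0 CPM in the AAV9-hFNDC4 libraries, against 28.3, 28.6 and 24.1 CPM in the AAV9-CTRL libraries (chromosome 15, 37923952 to 37961318). All AAV9-hFNDC4 libraries lay above all AAV9-CTRL libraries, with a log2 fold change of 0.74 (SE 0.12, edgeR adjusted p = 0.000446), 1.67-fold higher. Xpc, which recognises bulky lesions in nucleotide excision repair, was at 15.5, 14.4 and 16.4 CPM under AAV9-hFNDC4, against 10.8, 11.9 and 9.18 CPM under AAV9-CTRL. Its value was 0.54 (SE 0.15, edgeR adjusted p = 0.0121), and the call was lost without AAV9-hFNDC4 replicate 3 (edgeR adjusted p = 0.0584) or AAV9-CTRL replicate 3 (0.0567), within 0.00327 to 0.0584 over its alternatives. Ddb2, the damage-binding partner of Xpc in the same pathway, was at 27.9, 24.2 and 28.2 CPM under AAV9-hFNDC4, against 17.3, 21.9 and 18.4 CPM under AAV9-CTRL. The closest libraries of the 2 groups differed by 24.2 against 21.9 CPM, and the value was 0.48 (SE 0.13, edgeR adjusted p = 0.0114). This call was lost without the same 2 libraries (edgeR adjusted p = 0.0515 and 0.0520), within 0.00174 to 0.0520 over its alternatives. Ddb2 shares 26.7% of its exon bases with Acp2 on the opposite strand, which averaged 49.4 CPM under AAV9-hFNDC4 and 35.2 CPM under AAV9-CTRL, a log2 fold change of 0.49. Whether libraries kept strand is not given in the sources used here, and the part of Acp2 reads in the Ddb2 counts was not tested. Induction of Ddb2 and Xpc by p53 is best known from human cells. Polk, a polymerase that copies past DNA lesions, had groups without overlap, at 45.9, 48.9 and 46.6 CPM under AAV9-hFNDC4 and 45.2, 35.2 and 36.5 CPM under AAV9-CTRL, but its value of 0.28 (SE 0.12) did not pass. Polk passed as higher with upper-quartile normalization and without AAV9-CTRL replicate 1. The nuclease Ercc5 stood at 28.2 ± 0.949 CPM under AAV9-hFNDC4 and 29.0 ± 0.847 CPM under AAV9-CTRL (SD, n = 3 each).

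**Figure D3:**
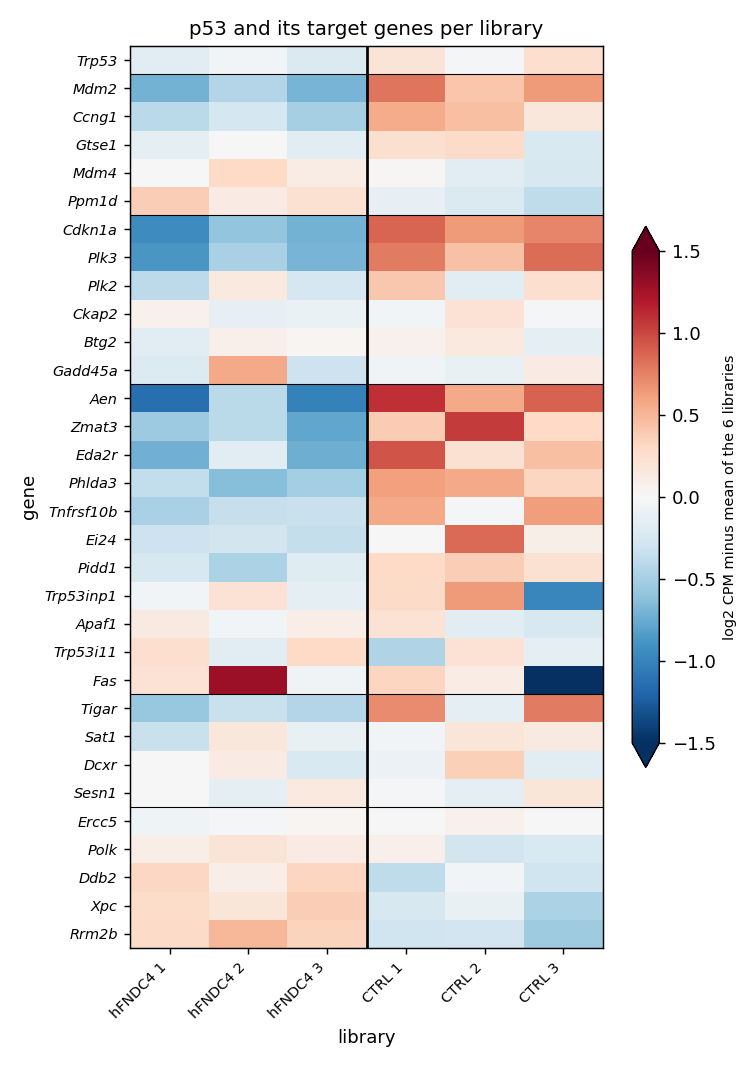
Log2 CPM of each gene minus its mean over the 6 libraries, with AAV9-hFNDC4 replicates in the left 3 columns and AAV9-CTRL replicates in the right 3, in the order of roles used above; the colour scale ends at 1.5 either way. The 13 rows called lower are bluer on the left than on the right, and AAV9-CTRL replicate 2 departs from its group in Zmat3, Ei24 and Tigar.

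Libraries of one group differed from each other in these genes. AAV9-hFNDC4 replicate 2 was the highest library of its group in 21 of the 32 members, and in 10 of the 13 called lower, so it lay nearer to the controls in those. AAV9-CTRL replicate 2 was the lowest control in 8 of the 13 lower members and the highest in 3. In Tigar it stood 0.90 below the mean of the other controls on the log2 scale and in Tnfrsf10b 0.62 below, whereas in Ei24 it stood 0.80 above and in Zmat3 0.71 above. Whole-table correlations of log2 CPM were 0.981 to 0.990 within groups and 0.938 to 0.952 between them.

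Fold changes in these libraries went along with transcript length. Across all genes, the median log2 fold change was -0.49 in the shortest 10% by exon length and 0.46 in the longest 10%. The members called lower had a median exon length of 3179 bases, those called higher 3266.5 bases and all tested genes 3140.5 bases. With a length correction, 12 members were called lower and 4 higher, with a median of -0.16 over all 32. Trp53 was the 1 call among the members that this correction ended. Zmat3 was then at -1.54 and Aen at -1.84.

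**Figure D4:**
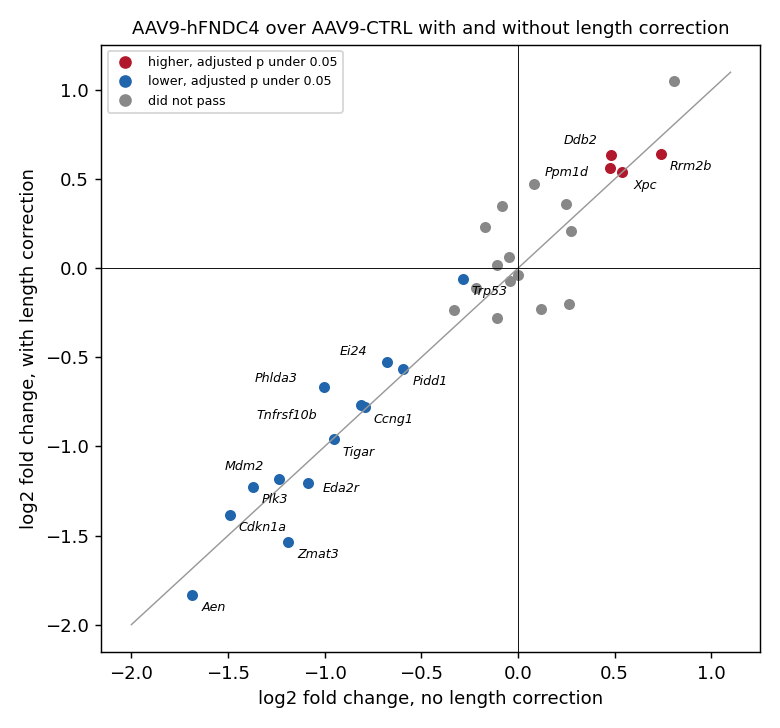
Log2 fold change, AAV9-hFNDC4 over AAV9-CTRL, of the 32 genes without (horizontal) and with (vertical) the correction for transcript length; the grey line marks equal values, and colours give the call without it. Apart from Trp53, at -0.06 on the vertical axis, every point called lower or higher keeps its sign and its call.

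Levels per kb of exon set the members in order of abundance. Under AAV9-hFNDC4, Gadd45a stood highest at 208 CPM per kb, then Trp53 at 95.6, Plk2 at 70.0 and Sat1 at 58.7. In the AAV9-CTRL libraries Gadd45a stood at 196 CPM per kb, Trp53 at 117, Plk2 at 88.0, Cdkn1a at 75.7, Sat1 at 66.1, Ccng1 at 65.0 and Mdm2 at 59.98. Cdkn1a and Mdm2, at 26.9 and 25.5 CPM per kb under AAV9-hFNDC4, came after Ckap2 (44.6), Ccng1 (37.6) and Ei24 (34.6) there. Fas was the lowest, at 1.59 CPM per kb under AAV9-hFNDC4 and 0.908 CPM per kb under AAV9-CTRL.

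Other genes of the pathway were read from 3 lists, which are not fully separate. Chek1 (-0.52, called lower) is counted both among the kinases and among the cell cycle genes. Pcna (-0.46, called lower) is counted both among genes that p53 induces and among those that it lowers. Of 42 tested kinases, damage sensors and cofactors of p53, 9 were higher (21.4%), 12 lower (28.6%) and 21 did not pass, with a median log2 fold change of -0.11. These shares are near those of all genes tested, 22.1% higher and 25.0% lower. Atm, the kinase that signals double-strand breaks to p53, stood at 96.0 ± 9.94 CPM under AAV9-hFNDC4 and 48.1 ± 11.5 CPM under AAV9-CTRL (log2 fold change 0.996, SE 0.16, edgeR adjusted p = 0.000404). Prkdc, a kinase of end joining, and Mdc1, a scaffold at breaks, were higher by 0.93 and 0.84. These are long transcripts, and with the length correction Atm was at 0.57, Prkdc at 0.43 and Mdc1 at 0.54, all still called. Sirt1, a deacetylase that acts on p53, was lower with -0.98 (SE 0.12), Trim28, a cofactor of Mdm2, with -0.73 (SE 0.11), and Rpl11, a ribosomal protein that binds and inhibits Mdm2, with -0.86, or -0.41 after the length correction.

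Among 69 further genes that p53 is known to induce, 10 were higher (14.5%), 20 lower (29.0%) and 39 did not pass, with a median of -0.12. The share called lower is near the 25.0% of all genes, and 22.1% of all genes were higher. The lower ones with the smallest p were Fos, Hbegf and Dusp5, at -5.68, -3.71 and -2.29, which respond to growth factors and other stimuli besides p53. Rps27l, a ribosomal protein variant that p53 induces, stood at 59.1 ± 4.27 CPM under AAV9-hFNDC4 and 147 ± 8.92 CPM under AAV9-CTRL, a log2 fold change of -1.31 (SE 0.11) that was -0.83 after the length correction. Bbc3 and Bax, which both act in mitochondrial cell death, went opposite ways. Bbc3 (PUMA) was higher at 27.4 ± 4.86 CPM under AAV9-hFNDC4, against 14.9 ± 2.16 CPM under AAV9-CTRL, a value of 0.88 (SE 0.16, edgeR adjusted p = 0.00108). Bax, which forms pores in the outer mitochondrial membrane, was lower at 85.6 ± 5.22 CPM against 161 ± 5.20 CPM under AAV9-CTRL, a value of -0.91 (SE 0.10) that was -0.48 after the length correction. Gdf15, a stress cytokine, was lower with -0.94 (SE 0.16), and both it and Bax were chosen with their values known. Among the higher genes with the smallest p were also Cx3cl1, a chemokine, at 0.88, and Tap1, a peptide transporter of antigen presentation, at 0.48.

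Of 46 cell cycle genes that p53 lowers through p21 and the DREAM repressor complex, 10 were higher (21.7%), 16 lower (34.8%) and 20 did not pass, with a median of -0.10. Over all genes tested 22.1% were higher and 25.0% lower. Mki67, the gene of the proliferation antigen Ki-67, stood at 897 ± 59.3 CPM under AAV9-hFNDC4 and 320 ± 53.5 CPM under AAV9-CTRL (log2 fold change 1.48, SE 0.13, edgeR adjusted p = 1.65e-05). Over the 15 alternatives Mki67 ran from 1.06 to 1.65. Bard1 and Brca1, which form a ligase of DNA repair, were higher by 0.93 and 0.80. After the length correction these were 0.74 and 0.54, both still called. Lower were Cdc25a, a phosphatase that drives entry into S phase, with -0.83 (SE 0.14), Cdc20, an activator of the anaphase-promoting complex, with -0.70 (SE 0.12), and Cenpa, the centromeric histone, with -0.69 (SE 0.14). With the length correction Cdc20 was at -0.45 and Cenpa at -0.39, both still called.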

How the data were processed

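The authors deposited raw counts of reads, not normalized, in a table of gene symbols by libraries. The tools fastp, HISAT2, HTSeq, R 3.2.0 and DESeq2 and the genome build GRCm38 (mm10) are named in the submitters' processing notes. Neither the annotation nor the strand setting is named there. The members, gene lists and named genes were chosen with earlier results of these data known.

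Counts were fitted in R 4.3.3 with edgeR 4.0.16 (filterByExpr, TMM, robust quasi-likelihood F test over all genes, Benjamini-Hochberg adjustment, threshold 0.05). The SE is the log2 fold change divided by the square root of F. The steps were tested on simulated data in which 200 of 14663 genes were changed, far fewer than were called here. The edgeR test recovered 90% of 2-fold changes but 44% of 1.5-fold changes, and called 0.076% of unchanged genes. Positions, exon lengths and GC content are those of GENCODE M21, in which all 32 tested members and 13392 of 14663 tested genes were found. Of the members, 7 share exon bases with another gene and 3 (Cdkn1a, Gadd45a and Ddb2) at least 10%. From each further list 3 or 4 genes per direction with the smallest p were named. A result that fell under this rule is not reported here.

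Alternatives were RLE and upper-quartile normalization, no filter or 1 CPM in 3 libraries, DESeq2 1.42.0, limma-voom (limma 3.58.1), the replicate number as a block, loess corrections (span 0.4) for length and GC content, omission of each library in turn, and a call rule of unadjusted p (0.05) plus a log2 change beyond 1 either way.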

Additional observations from a re-analysis of the deposited data

How the results depend on the processing

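Single members had 480 values under 15 alternatives, the other call rule aside. Of these, 429 kept their direction and their side of the threshold, 16 lost a call, 10 gained one and 25 changed sign. The members called lower numbered 12 to 14 when 1 library was left out, and 7 by the rule of unadjusted p plus a log2 change beyond 1, where 0 were called higher and 2237 genes were called in all, against 6908. The members called higher numbered 1 to 6 when 1 library was left out, and the median over all 32 ran from -0.25 to -0.095. Over all genes, the same omissions gave 5273 to 7397 calls. The cause of these shifts was not tested. With the replicate block, 12 members were called lower, 4 higher and 5743 genes in all. Deviations from the group mean correlated at -0.09, -0.20 and -0.06 between libraries of the same number. No pairing by replicate number was visible there, but 3 libraries a group cannot show that there was none. The block ended the call of Trp53 (-0.28) and no other call among the members.

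Values that changed sign belonged to members that did not pass. With the length correction these were Apaf1 (-0.23), Btg2 (0.061), Ckap2 (0.016), Dcxr (0.35), Mdm4 (-0.20), Sat1 (0.23) and Sesn1 (-0.036), and with the GC correction Btg2 (0.013) and Dcxr (0.14). Upper-quartile normalization turned Btg2 (0.0092) and Ercc5 (0.017). Sesn1 was at -0.00041 with RLE and -0.00044 with DESeq2. Trp53inp1 was at 0.036 with limma-voom and 0.017 with the replicate block. When 1 library was left out, signs changed in Btg2 (-0.13 to 0.033), Dcxr (-0.18 to 0.10), Gadd45a (-0.24 to 0.25), Sesn1 (-0.067 to 0.095) and Trp53inp1 (-0.45 to 0.23). Counts of 17 to 165 per library limit what can be said of Fas.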
